A study of Mus musculus with 10 samples.

Results

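MAP kinase phosphatases and Sprouty proteins are feedback inhibitors that kinase signalling switches on to limit itself. Here 10 of their genes were taken by name from the 54532 genes of the deposited table: Dusp1, Dusp4, Dusp5, Dusp6, Dusp8, Dusp10, Dusp16, Spry2, Spry4 and Spred1. The samples were livers of 10 mice, put on HFD (a high-fat diet) at 6 weeks of age, kept on it for 7 weeks and left without food for 5 h before the liver was taken. Of these mice, 5 (replicates 1 to 5) were ASK1f/f control littermates, which carry murine ASK1 cDNA in the ROSA26 locus behind a lox-stop-lox cassette on a C57BL/6J background. The other livers, also replicates 1 to 5, came from ASK1+hep mice, in which Alb-Cre removes the stop cassette, for overexpression of ASK1 specific to the liver. The question asked of the data was whether genes that restrain JNK, p38 and ERK differed between livers with and without the extra ASK1, the kinase that sits above JNK and p38.

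Mitogen-activated protein kinases are active when a threonine and a tyrosine in the same loop are both phosphorylated, and the dual-specificity phosphatases (DUSP) remove both phosphates. Some of these enzymes prefer JNK and p38, the stress kinases, and others prefer ERK, the kinase downstream of growth factor receptors. Several are made only after the kinases have been active, so their mRNA is widely read as a trace of recent signalling. Sprouty and Spred proteins act further up, between receptor tyrosine kinases, Ras and Raf. In the liver, such brakes bear on the response to growth factors, to lipotoxic stress and to feeding.

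Each library held 13367742 to 16163378 reads on genes, recovered from the deposited FPKM, which give reads per length of gene and per size of library. The library size behind the FPKM was not the total of these reads. It was 13777799 against 15480136 reads on genes in ASK1+hep replicate 3, and 16696171 against 15713626 in ASK1f/f replicate 1. All 10 genes passed the filter on low reads and were among the 13306 genes compared with limma on log2(FPKM + 1). Log2 fold changes below are ASK1+hep minus ASK1f/f on that scale, which makes the difference of a low gene look smaller than its ratio. The gene of ASK1 itself, Map3k5, was at 6.74, 6.88, 5.77, 4.71 and 19.8 FPKM in the control libraries and at 16.4, 11.1, 7.68, 12.4 and 15.2 FPKM in the ASK1+hep libraries, each in the order of replicates 1 to 5, as are all values by liver below. A single library, labelled ASK1f/f replicate 5, thus went against its label. The log2 fold changes of the 10 genes without it are given after their single accounts. With all 10 livers Map3k5 had a log2 fold change of 0.60 (standard error 0.32, 95% interval -0.090 to 1.29, adjusted p = 0.812 from limma). ASK1+hep replicate 3 also stood apart, since its 10 most abundant genes took 21.4% of its reads against 15.4% to 19.0% in the other libraries, and it had the lowest quality weight of the 10 in limma-voom (0.238). Hepatocyte transcripts were abundant throughout, with Alb, the gene of albumin, at 14692 to 25083 FPKM.

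Genome positions are those of the table, which were the same as in GENCODE M21 (GRCm38) for 98.3% of the 54409 genes found there, though not for Dusp1 and Spry4, whose ends differ. The stretches before the start sites of 3 of the genes are shown because they hold motifs through which stress and growth signals are known to reach DNA. RefSeq (GRCm38.p6) gave a window from 250 bases before to 50 bases after the start for 8 of the 10 genes, and no base in an exon of a coding transcript of GENCODE M21 is printed. The Dusp8 stretch lies inside the gene as the table gives it, in the first intron of a transcript that starts further upstream. Capitals mark the CRE (TGACGTCA, bound by CREB and ATF factors), its core (TGACG, or CGTCA on the other strand) and the serum response element, all searched on both strands. Each CRE contains a pair of overlapping cores.
Dusp1, chr17:26508520-26508722, minus strand: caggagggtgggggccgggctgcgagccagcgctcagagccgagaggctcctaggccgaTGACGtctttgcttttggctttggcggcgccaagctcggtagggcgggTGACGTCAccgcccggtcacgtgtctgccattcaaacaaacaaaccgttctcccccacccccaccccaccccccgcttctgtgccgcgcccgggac
Dusp5, chr19:53528895-53529108, plus strand: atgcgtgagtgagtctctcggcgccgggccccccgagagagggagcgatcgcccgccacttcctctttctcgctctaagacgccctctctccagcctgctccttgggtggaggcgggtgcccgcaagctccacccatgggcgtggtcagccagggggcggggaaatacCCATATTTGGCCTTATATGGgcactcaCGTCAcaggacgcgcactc
Dusp8, chr7:142095285-142095534, minus strand: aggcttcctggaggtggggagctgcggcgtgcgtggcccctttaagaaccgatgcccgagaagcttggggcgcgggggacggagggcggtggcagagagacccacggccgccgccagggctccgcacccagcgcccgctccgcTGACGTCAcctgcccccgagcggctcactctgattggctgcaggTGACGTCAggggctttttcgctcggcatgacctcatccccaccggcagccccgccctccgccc

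The CRE occurred in 2 of the 8 windows, in Dusp1 at 143 to 136 bases before the start and in Dusp8 at both 107 to 100 and 63 to 56 bases before the start. It was found in 1.79% of all 32851 promoter windows. A core alone was found at 191 to 187 bases before the start of Dusp1, at 55 to 51 in Dusp5 and at 70 to 66 in Dusp16, so 4 of the 8 windows held at least 1 core, against 20.8% of all windows. Dusp5 had a pair of serum response elements side by side, at 82 to 73 and 72 to 63 bases before its start, a motif present in 1.63% of all windows. The AP-1 motif (TGACTCA or TGAGTCA), present in 5.20% of all windows, was in 0 of the 8, and the ETS core CCGGAA, present in 14.9%, was in Spry2 alone, after its start. Windows for Dusp4 and Spry4 were not analysed here. The 8 windows were 57.3% to 73.3% G or C, against a median of 52.7% over all windows, and the shares above are not adjusted for this. These are letter matches in short windows and say nothing of binding in these livers.

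None of the 10 feedback genes passed the adjusted threshold between genotypes. With limma, 0 of 10 had an adjusted p at or below 0.05, the same share as over all genes compared (0%), and their adjusted p ranged from 0.812 to 0.974. At an unadjusted p under 0.05 there was 1 of 10, Dusp10, where 5.77% of all genes were. The groups overlapped for all 10, and did not overlap for 0.864% of all genes. Means on the log scale were higher in ASK1+hep livers for 7 of the 10 and lower for Dusp4, Dusp16 and Spry4, with a median log2 fold change of 0.11 against -0.0065 over all genes. Without the library labelled ASK1f/f replicate 5, 7 of 10 were again higher and the median was 0.097. With limma-voom on the recovered reads, 0 of 10 passed and 2 had an unadjusted p under 0.05.

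**Figure D1:**
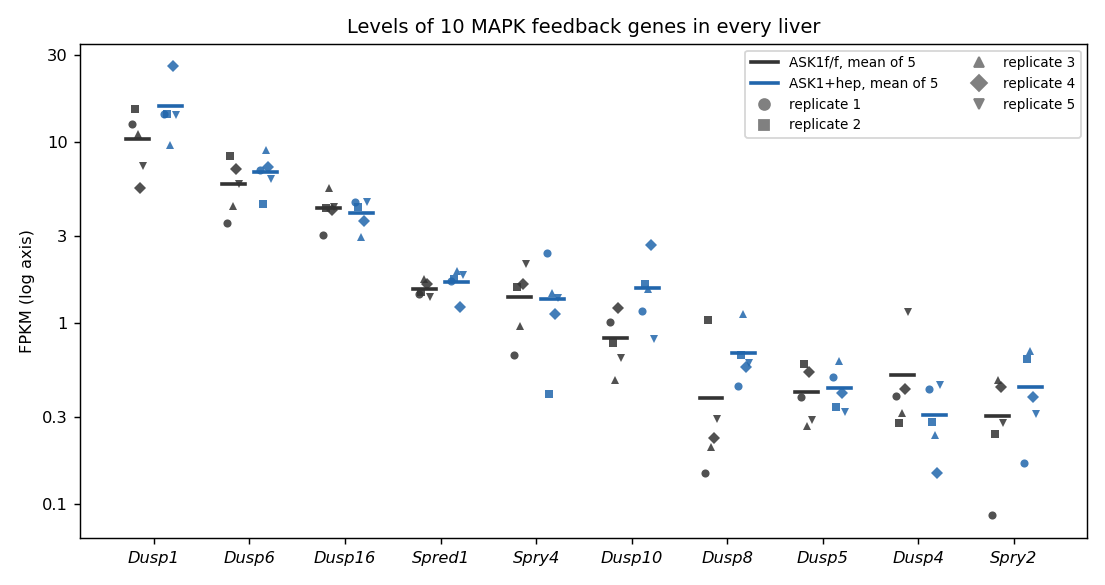
FPKM on a log axis for the 10 genes, ordered by their mean over all livers, with each point 1 liver, symbols for replicate numbers and bars for group means of 5 livers. Dusp1 lies highest at 5.53 to 26.0 FPKM and Spry2 lowest at 0.0861 to 0.696 FPKM, and black and blue points overlap for every gene.

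Levels spanned a wide range and fell into 2 tiers. Dusp1 had a mean of 13.0 FPKM over the 10 livers, Dusp6 6.32 and Dusp16 4.16, and in all 10 livers Dusp16 was above Spred1, the next gene at 1.61 FPKM, with no overlap of their ranges. Below this gap came Spry4 (mean 1.37 FPKM), Dusp10 (1.19), Dusp8 (0.530), Dusp5 (0.426), Dusp4 (0.411) and Spry2 (0.373), and the range of each of these genes overlapped that of the next. Dusp1 was above Dusp6 in 9 of 10 livers, and Dusp4 was above Spry2 in 5 of 10. Dusp1 alone made 44.2% of the summed FPKM of the 10 genes. FPKM is per length, so these levels can be set beside each other.

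Among the phosphatases that prefer JNK and p38, Dusp1 encodes MKP-1, a nuclear enzyme made within minutes of stress or hormone signals. It lies on chromosome 17 from 26505590 to 26508519, minus strand, with 4 exons. Dusp1 was at 12.5, 15.1, 10.96, 5.53 and 7.35 FPKM in the control livers and at 14.3, 14.3, 9.53, 26.0 and 14.1 FPKM in the ASK1+hep livers. Only ASK1+hep replicate 4 was above every control, and the lowest control values were those of replicates 4 and 5. The means were 10.3 ± 3.87 and 15.6 ± 6.15 FPKM (SD, n = 5 each), a ratio of 1.52. The log2 fold change was 0.56 (standard error 0.28, 95% interval -0.042 to 1.17, adjusted p = 0.812 from limma), and exact two-sided permutation of the livers gave a p of 0.151 (n = 5 per group). Without ASK1+hep replicate 4 the log2 fold change was 0.37, about 1.5 times smaller. Between 227 and 1037 reads lay behind each value, so counting error (4.36% of the mean) was small beside the spread within groups (39.6% of the mean).

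Dusp10 encodes MKP-5, a phosphatase of p38 and JNK with little action on ERK. The gene lies on chromosome 1 from 184013302 to 184075636, plus strand, with 4 exons, and overlaps 1700056E22Rik on the other strand (0.204 to 2.74 FPKM). The RefSeq window of Dusp10 lies inside the gene and partly on the stretch it shares with that partner. Since it is not stated whether reads were counted by strand, the 2 genes cannot be fully told apart. Dusp10 was at 1.00, 0.772, 0.483, 1.21 and 0.641 FPKM in the control livers and at 1.16, 1.63, 1.53, 2.69 and 0.811 FPKM in the ASK1+hep livers. ASK1+hep replicates 2, 3 and 4 were above every control, while replicates 1 and 5 were within the control range. Mean levels were 0.822 ± 0.289 and 1.56 ± 0.71 FPKM (SD, n = 5 each), a ratio of 1.90, the widest of the 10 genes. With limma the log2 fold change was 0.47 (standard error 0.17, 95% interval 0.083 to 0.85, unadjusted p = 0.0211, adjusted p = 0.812), which ranked the gene 327 of 13306. By exact permutation of the livers, two-sided, p was 0.0476 before any adjustment (n = 5 per group). Without ASK1f/f replicate 3 the unadjusted p from limma was 0.0557, and over the 19 alternatives the adjusted p ranged from 0.383 to 0.998. Its reads numbered 22 to 121 per liver.

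Dusp8, a phosphatase of JNK and p38 best known from brain and heart, lies on chromosome 7 from 142079490 to 142095843, minus strand, with 7 exons. The levels were 0.148, 1.03, 0.206, 0.229 and 0.294 FPKM in the control livers and 0.446, 0.667, 1.12, 0.570 and 0.596 FPKM in the ASK1+hep livers. A single control, replicate 2, stood in the upper part of the ASK1+hep range, and the other 4 controls were below all 5 ASK1+hep livers. Means were 0.381 ± 0.366 and 0.679 ± 0.258 FPKM (SD, n = 5 each), for a log2 fold change of 0.30 (standard error 0.15, 95% interval -0.029 to 0.64, adjusted p = 0.812 from limma). By exact two-sided permutation of the livers p was 0.143 (n = 5 per group). Leaving out ASK1f/f replicate 2 raised the log2 fold change to 0.45 (unadjusted p = 0.000987, adjusted p = 0.888 from limma). That liver was singled out from these same values, so this p is not support for a difference. The log2 fold change also depended on the scale of this low gene, with 12 to 79 reads per liver. With limma-voom it was 1.11 (adjusted p = 0.803).

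Dusp16 encodes MKP-7, which holds JNK in the cytoplasm and dephosphorylates it. It lies on chromosome 6 from 134715468 to 134792625, minus strand, with 7 exons in its longest coding transcript. The control livers had Dusp16 at 3.04, 4.28, 5.52, 4.18 and 4.38 FPKM, and 4.64, 4.33, 2.98, 3.66 and 4.62 FPKM were found with extra ASK1. These values were among the steadiest of the 10 genes and overlapped almost fully. The log2 fold change was -0.062 (standard error 0.14, 95% interval -0.38 to 0.25, adjusted p = 0.925 from limma). Its sign turned when replicate 3 of the controls (0.018) or of the ASK1+hep livers (0.020) was left out, so no direction is given.

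**Figure D2:**
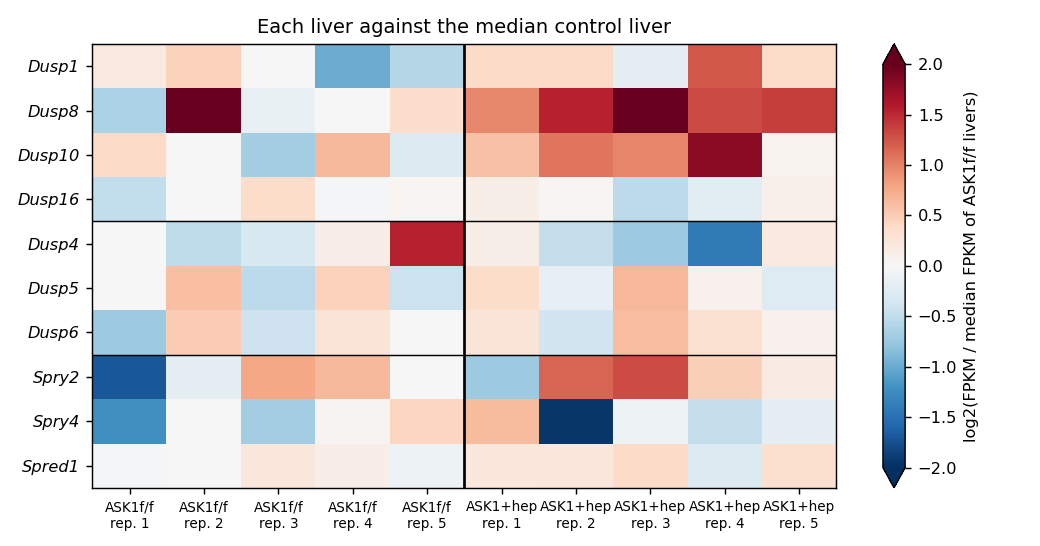
Log2 of each liver's FPKM over the median FPKM of the 5 ASK1f/f livers, with genes in rows (JNK and p38 phosphatases, ERK phosphatases, then Sprouty and Spred) and livers in columns. Dusp8 is above the control median in all 5 ASK1+hep livers but also strongly so in ASK1f/f replicate 2, and Dusp4 is high in ASK1f/f replicate 5 alone.

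Of the phosphatases with a preference for ERK, Dusp6 was the one with a substantial level. It encodes MKP-3, a cytoplasmic enzyme that binds ERK and is itself a classical ERK target gene. The gene is on chromosome 10 from 99263231 to 99267489, plus strand, with 3 exons. Dusp6 was at 3.54, 8.33, 4.40, 7.03 and 5.87 FPKM in the control livers and at 6.98, 4.52, 9.01, 7.29 and 6.21 FPKM in the ASK1+hep livers. The ranges were nearly the same, with 1 ASK1+hep liver above the highest control. Mean levels were 5.83 ± 1.94 and 6.80 ± 1.64 FPKM (SD, n = 5 each), for a log2 fold change of 0.21 (standard error 0.21, 95% interval -0.24 to 0.67, adjusted p = 0.838 from limma).

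Dusp5 encodes a nuclear phosphatase specific for ERK, on chromosome 19 from 53529109 to 53542431, plus strand, with 4 exons. In the controls it ranged from 0.270 to 0.591 FPKM (median 0.388) and in ASK1+hep livers from 0.323 to 0.616 FPKM (median 0.411), with 10 to 23 reads per liver. Its log2 fold change was 0.027 (standard error 0.080, 95% interval -0.15 to 0.20, adjusted p = 0.950 from limma), and the sign turned in 3 of the fits that left out a liver. Counting error alone comes to 25.1% of the mean at this depth, close to the 31.1% found within groups.

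Dusp4 encodes MKP-2, a nuclear phosphatase related to MKP-1 that acts on ERK and JNK. It is on chromosome 8 from 34807297 to 34819894, plus strand, with 4 exons. Dusp4 was at 0.393, 0.278, 0.317, 0.432 and 1.14 FPKM in the control livers and at 0.428, 0.282, 0.238, 0.148 and 0.450 FPKM in the ASK1+hep livers. The highest value was that of the library labelled ASK1f/f replicate 5, the same one in which Map3k5 was highest, and the remaining 9 livers were at 0.450 FPKM or below. The log2 fold change was -0.19 (standard error 0.13, 95% interval -0.47 to 0.098, adjusted p = 0.812 from limma) and -0.054 without that library. It rested on 6 to 48 reads per liver.

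Sprouty proteins are membrane-associated inhibitors that receptor signalling both induces and phosphorylates. Spry4 lies on chromosome 18 from 38586268 to 38601268, minus strand, with 2 exons. It was at 0.666, 1.56, 0.962, 1.63 and 2.10 FPKM in the control livers and at 2.43, 0.405, 1.46, 1.12 and 1.38 FPKM in the ASK1+hep livers. Both the highest and the lowest of the 10 values were in ASK1+hep livers. The means were 1.38 ± 0.569 and 1.36 ± 0.728 FPKM (SD, n = 5 each), with a log2 fold change of -0.039 (standard error 0.23, 95% interval -0.53 to 0.45, adjusted p = 0.974 from limma) whose sign turned in 3 of the fits that left out a liver.

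Spry2, the other Sprouty gene, lies on chromosome 14 from 105891947 to 105896819, minus strand, with 2 exons. Controls ranged from 0.0861 to 0.480 FPKM (median 0.280) and ASK1+hep livers from 0.169 to 0.696 FPKM (median 0.389), and 2 ASK1+hep livers were above every control. With only 3 to 20 reads per liver, counting error reached 29.7% of the mean. The log2 fold change was 0.14 (standard error 0.11, 95% interval -0.11 to 0.38, adjusted p = 0.817 from limma).

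Spred1, a relative of the Sprouty proteins that brings neurofibromin to the membrane and so lowers active Ras, is on chromosome 2 from 117121374 to 117182279, plus strand, with 7 exons. Controls had Spred1 at 1.45, 1.48, 1.73, 1.63 and 1.38 FPKM, and ASK1+hep livers at 1.70, 1.73, 1.93, 1.22 and 1.84 FPKM. It varied least of the 10 genes, with a spread within groups of 13.7% of the mean, where counting error came to 7.83%. The log2 fold change was 0.079 (standard error 0.093, 95% interval -0.13 to 0.28, adjusted p = 0.857 from limma).

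**Figure D3:**
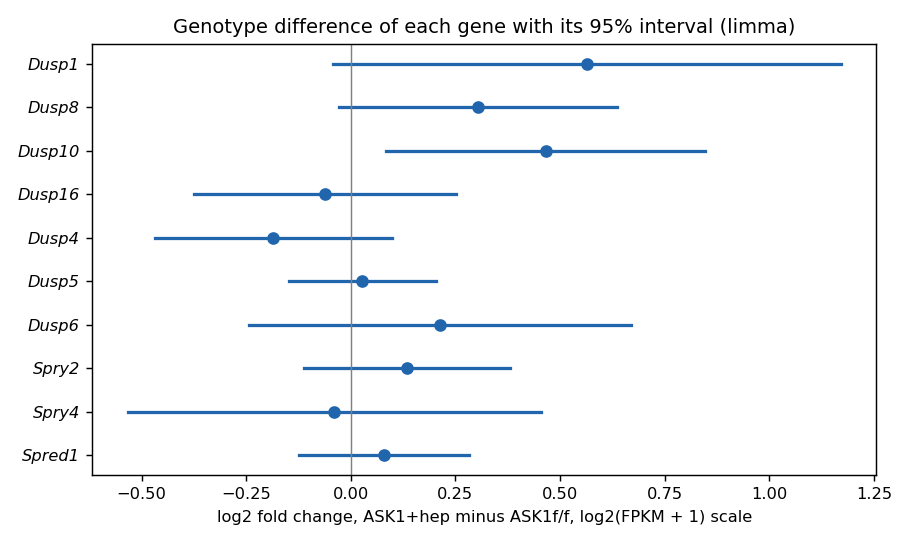
Log2 fold change of each gene (points) with its 95% interval from limma (bars), not adjusted for the number of genes. The interval of Dusp10 (0.083 to 0.85) is the only one that does not reach 0 on the log2(FPKM + 1) scale, on which low genes have narrow intervals. With limma-voom Dusp8 also had an unadjusted p under 0.05 (0.0236), and Spry2 had the largest standard error (0.50).

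On the log2(FPKM + 1) scale the intervals of Dusp5 and Spred1 end at 0.20 and 0.28, and that of Dusp1, the most abundant gene, at 1.17. The added 1 narrows the intervals of low genes. The constant that limma-voom adds to the reads is much smaller. Its standard error was 0.31 for Dusp5, 0.29 for Dusp1, 0.50 for Spry2 and 0.15 for Spred1. A difference as large as for Dusp1 could thus go unseen for Dusp5. Spread within groups, as the SD of log2(FPKM + 1), was 0.51 for Dusp1, 0.41 for Spry4 and 0.37 for Dusp6, against a median of 0.19 over all genes compared, and 0.13 for both Dusp5 and Spred1. Leaving out each liver in turn kept the direction of Dusp1, Dusp10, Dusp8, Dusp6, Spry2, Spred1 and Dusp4, while Dusp5, Dusp16 and Spry4 crossed 0. The size moved more than the direction, with Dusp6 from 0.077 without ASK1f/f replicate 1 to 0.34 without ASK1f/f replicate 2, Spry2 from 0.071 without ASK1f/f replicate 1 to 0.21 without ASK1+hep replicate 1, and Spred1 from 0.046 without ASK1+hep replicate 3 to 0.15 without ASK1+hep replicate 4. Without ASK1f/f replicate 5, the library in which Map3k5 went against the label, the log2 fold changes were 0.47 for Dusp1, 0.43 for Dusp10, 0.29 for Dusp8 and -0.051 for Dusp16. They were then 0.23 for Dusp6, -0.0050 for Dusp5 and -0.054 for Dusp4, and 0.064 for Spry4, 0.13 for Spry2 and 0.056 for Spred1.

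**Figure D4:**
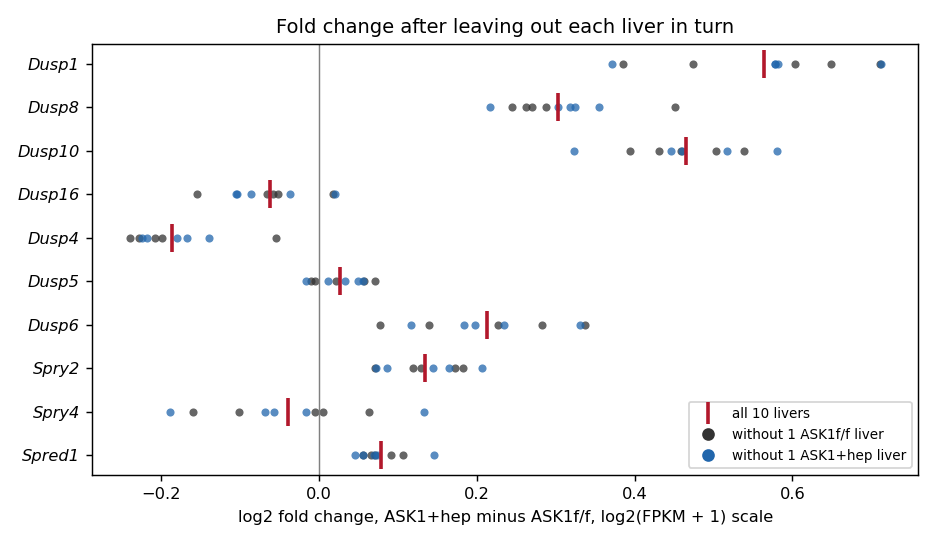
Log2 fold change of each gene with all 10 livers (red bars) and after leaving out 1 ASK1f/f (black) or 1 ASK1+hep liver (blue). Dusp1 ranges from 0.37 to 0.71, Dusp10 from 0.32 to 0.58 and Dusp4 from -0.24 to -0.054, and Dusp5, Dusp16 and Spry4 fall on both sides of 0.

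The 10 genes did not vary as a block across livers. Over the 45 pairs of genes, Pearson's r of log2(FPKM + 1) over the 10 livers ranged from -0.58 to 0.73 with a median of 0.069. Dusp5 and Dusp6 had the highest value (r = 0.73, Spearman's rho = 0.81, n = 10 livers). It was 0.74 for deviations from group means and 0.51 without the 2 livers farthest from the median of Dusp5. Preferred kinase did not sort the pairs, since Dusp6 had r = 0.69 with Dusp8 and -0.17 with Dusp4. Dusp1 and Dusp4 had the lowest (r = -0.58, rho = -0.53). Dusp1 and Dusp10 had r = 0.49 and, for deviations from group means, 0.23. ASK1+hep replicate 3, the library with the lowest quality weight, was the highest of the 10 livers for 5 genes (Dusp5, Dusp6, Dusp8, Spry2 and Spred1) and the lowest for Dusp16, and the part of its RNA composition in these values was not tested. These are descriptions across livers that share a scaling of reads, and no test was made.

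Other genes of the same pathways were read from lists, each as a count of genes beside the figures for all genes (48.0% higher with extra ASK1, median -0.0065). With limma 0 genes of any list passed the adjusted threshold, and limma-voom gave 0 as well. Of 8 further family members, only Dusp7, Spry1 and Spred2 passed the filter, with log2 fold changes of 0.013, 0.011 and 0.15 and 0 at an unadjusted p under 0.05. Dusp9, a phosphatase of ERK and p38 studied in insulin-resistant liver, averaged 0.0327 FPKM in controls and 0.0317 FPKM with extra ASK1 and was not compared. Among 9 further phosphatases that act on these kinases, 5 were higher (median 0.044, but -0.028 with scaling by all reads) and 0 had an unadjusted p under 0.05. Ppm1a and Ppm1b, serine and threonine phosphatases of p38 and JNK, had log2 fold changes of 0.14 and 0.16, and Ppm1d and Dusp3 had -0.083 and -0.13.

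Of 13 other inhibitors of receptor and Ras signalling, 5 were higher and 8 lower (median -0.083, but -0.14 without ASK1+hep replicate 5 and -0.0024 when ASK1f/f replicate 5 was left out), and 1 had an unadjusted p under 0.05. This was Lrig1, which promotes the turnover of EGF receptors, at 5.64 ± 0.955 FPKM in controls and 3.96 ± 0.702 FPKM with extra ASK1 (SD, n = 5 each, log2 fold change -0.42, adjusted p = 0.812 from limma). Sh2b3, Socs2 and Pebp1 had log2 fold changes of -0.20, 0.17 and 0.11. In the ERK cascade 5 of 26 genes were higher and 21 lower (median -0.061, but -0.023 without ASK1+hep replicate 3 and -0.030 without ASK1+hep replicate 4), with Rps6ka1 higher and Egfr and Ksr1 lower at an unadjusted p under 0.05. Egfr, the EGF receptor, was at 49.7 ± 8.65 and 38.9 ± 4.32 FPKM (SD, n = 5 each, log2 fold change -0.34, adjusted p = 0.812 from limma). The JNK and p38 cascade was balanced, with 10 of 21 genes higher (median -0.0028), and Mapk14, the gene of p38 alpha, was at 21.8 ± 2.42 and 18.0 ± 2.80 FPKM (SD, n = 5 each, adjusted p = 0.812 from limma). Map3k6, a kinase that partners ASK1, had a log2 fold change of -0.38 and the scaffold gene Mapk8ip1 0.15, while Hras of the ERK cascade had 0.28.

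Lists of genes induced through these kinases were read in the same way. Of 9 JNK and AP-1 targets, 7 were higher with extra ASK1, with a median of 0.43, and 2 had an unadjusted p under 0.05. That median rested on single livers, being 0.093 without ASK1+hep replicate 4, 0.13 without ASK1f/f replicate 4, 0.15 without ASK1+hep replicate 2, 0.17 without ASK1f/f replicate 3, 0.19 without ASK1f/f replicate 1, 0.23 without ASK1+hep replicate 3 and 0.54 without ASK1f/f replicate 5. The 2 genes at an unadjusted p under 0.05 were Jun and Ppp1r15a. Jun, the AP-1 subunit that JNK phosphorylates, was at 5.26 ± 3.37 and 15.2 ± 10.5 FPKM (SD, n = 5 each, log2 fold change 1.27, adjusted p = 0.812 from limma). Ppp1r15a, a stress-induced subunit of a phosphatase of eIF2 alpha, had a log2 fold change of 0.54. Gadd45g and Hmox1, the pair with lower means, had -0.78 and -0.22. Among 18 early response genes of ERK and SRF, 8 were higher and the median was -0.027 (0.039 without ASK1f/f replicate 5 and -0.066 to 0.060 over all livers left out in turn), with Maff at an unadjusted p under 0.05 (log2 fold change 0.40). Ier2, Ccnd1 and Klf4 had log2 fold changes of 0.23, -0.30 and -0.16 and did not reach it. Dusp1 is also induced by glucocorticoids, and of 11 genes of that list 2 were higher and 9 lower (median -0.35, but -0.086 without ASK1+hep replicate 4 and -0.64 without ASK1+hep replicate 5), with 0 at an unadjusted p under 0.05. Lcn2 and Mt1, which acute inflammation also induces, had the lowest log2 fold changes (-1.98 and -1.63), with 35.6 ± 52.6 against 2.42 ± 1.20 FPKM for Lcn2 (SD, n = 5 each), and Pck1 and Sgk1 had 0.27 and 0.14.

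**Figure D5:**
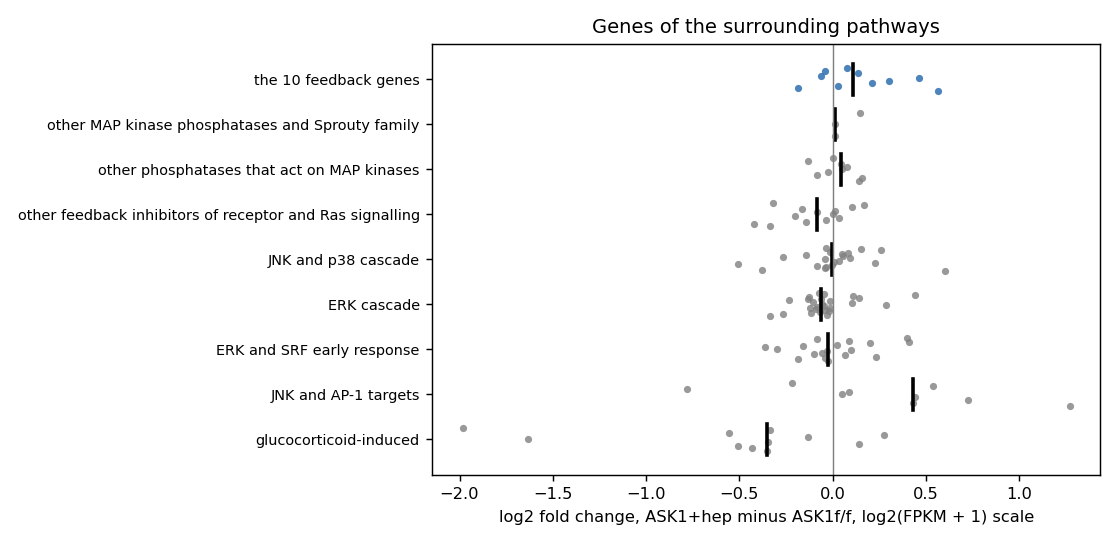
Log2 fold changes of the compared genes in each list (points) with the list's median (black bars), the 10 feedback genes in blue. Medians range from -0.35 for glucocorticoid-induced genes to 0.43 for JNK and AP-1 targets, with 0.11 for the feedback genes, and those 2 lists come to -0.086 and 0.093 without ASK1+hep replicate 4.

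Several of these feedback genes are also made by liver cells other than hepatocytes, and bulk RNA cannot tell fewer cells of a type from less RNA per cell. Summed markers overlapped between groups for every cell type listed. The 10 endothelial markers summed to 49.0 to 65.2 FPKM in controls and 44.6 to 84.4 FPKM with extra ASK1, led by Eng and Clec4g, and 5 of 10 were higher. The 10 Kupffer cell and macrophage markers, led by C1qa and C1qb, summed to 189.5 to 318.4 and 120.6 to 282.1 FPKM, and 0 of 10 were higher (median log2 fold change -0.19). This median was -0.10 when ASK1f/f replicate 5 was left out, and -0.043 and -0.33 when ASK1+hep replicates 2 and 1 were. Of the 10 stellate cell and fibroblast markers, led by Colec11 and Dcn, 2 were higher (38.6 to 62.2 and 34.9 to 55.1 FPKM). The 6 cholangiocyte markers, led by Spp1 and Sox9, summed to 13.5 to 32.7 and 15.6 to 28.3 FPKM, and the 9 lymphocyte markers, led by Cd79b and Cd79a, to 2.24 to 3.28 and 1.89 to 4.44 FPKM. The 8 hepatocyte markers summed to 39235 to 51926 and 45051 to 76225 FPKM, led by Alb and Apoa2. None of the markers was at 0 in all livers, and their part in the values of the feedback genes was not tested.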

How the data were processed

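Bulk RNA sequencing had been done on 10 mouse livers, 5 per genotype. The authors deposited FPKM per gene. In their methods, reads were cleaned (fastp in the submitters' processing notes), mapped with Hisat2 and assigned to genes by FeatureCounts after poly-A selection, with no genome build, annotation release or strand setting given in the sources used here. FPKM times gene length gave whole reads in every library (100% of values within 0.01), which served for depth, the filter and limma-voom. The 13306 genes compared had 10 or more reads in 5 livers, after scaling to a median library, and 15 or more over all livers. The authors' methods name DESeq2, which was not run here. The deposited unit being FPKM, the main test was limma 3.58.1 (R 4.3.3) on log2(FPKM + 1), with a trend of variance on level, no covariates and Benjamini-Hochberg adjustment over all genes (threshold 0.05). The same steps were tested on simulated data. Single genes were also compared by exact two-sided permutation over the 10 livers, whose smallest p is 0.00794. Groups and replicate numbers follow the sample labels, and p-values measure the spread between mice. No pair of libraries agreed within sampling noise (lowest chi-square per degree of freedom 23.2). Intervals cover the spread between livers, and counting error is the Poisson error of the mean read number.

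The 10 genes and all lists were chosen with earlier results of these data known. Named genes are the 10 members, Map3k5, up to 2 higher and 2 lower genes of lowest p per pathway list, the 2 most abundant markers per cell type, and the 3 genes of highest Pearson r with Dusp1, Dusp6 and Spry4. Spry1 and Dusp9 were named after their values were seen. Alternatives were no filter, 10 reads in every liver, a pseudocount of 0.1 and limma-voom (plain or weighted by library quality). Others were a replicate block, a term for the prefix of the column name, scaling by all reads or the upper quartile, and leaving out each liver. The prefix was SN for replicate 1 of both genotypes and CC for all other livers, and its meaning is not stated. A comparison of protein sequences was planned and not made. Figures were drawn with matplotlib 3.10.9.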

Additional observations from a re-analysis of the deposited data

Results flagged for a closer look

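In groups of 5, a liver was picked out when more than 0.71 of its group's range lay between it and the nearest liver. This was so in 4 of 22 groups of values (10 feedback genes and Map3k5 in each genotype). Chance gives about 1 in 20 only for independent, normally distributed values. FPKM were used here without a log, and all 4 were the highest of their group, so 4 of 22 is not read as an excess. Dusp1 was at 26.0 FPKM in ASK1+hep replicate 4 (gap ratio 0.712, just past the limit), and without that liver its log2 fold change was 0.37. Dusp4 reached 1.14 FPKM in a control library, labelled ASK1f/f replicate 5 (gap ratio 0.822), and without it the log2 fold change was -0.054. Dusp8 was at 1.03 FPKM in ASK1f/f replicate 2 (gap ratio 0.835), and without it the log2 fold change was 0.45. Map3k5 reached 19.8 FPKM, also in ASK1f/f replicate 5 (gap ratio 0.856). The log2 fold change of Map3k5 was 0.60 with all 10 livers and 0.92 without that library (adjusted p = 0.812 and 0.283 from limma). The causes were not tested.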

How the results depend on the processing

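No feedback gene passed the adjusted threshold in any of the 19 alternatives, and 180 of their 188 log2 fold changes kept their direction. Changes of filter, the replicate block and the prefix term leave each log2 fold change as it was, so those values could not turn. The 8 that turned were all from leaving out a liver, over which Dusp5 ranged from -0.016 to 0.071, Dusp16 from -0.15 to 0.020 and Spry4 from -0.19 to 0.13. With at least 10 reads in every liver, Dusp4 and Spry2 dropped out. In the other 18 alternatives 7 or 8 of the 10 genes were higher, with medians from 0.059 to 0.19.

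At an unadjusted p under 0.05 there was 1 feedback gene, 2 with the pseudocount of 0.1 (Dusp10 and Dusp8), 2 with limma-voom, 3 with quality weights (Dusp1 also), and 0 to 3 when a liver was left out, being 0 without ASK1f/f replicate 3, 2 without ASK1+hep replicate 3 and 3 without ASK1f/f replicate 2. Over all genes that number was 768, 1222 without a filter, and 557 to 1724 when a liver was left out (1178 without ASK1+hep replicate 1 and 1724 without ASK1+hep replicate 5). The number past the adjusted threshold was 0 over all genes, 1 with quality weights, and 0 to 1 when a liver was left out. Higher genes made up 52.9% of the 768, against 31.4% with scaling by all reads and 38.6% with the upper quartile. Why these counts moved was not tested.

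With the replicate number as a replicate block, 0 feedback genes passed, and Dusp10 had an unadjusted p of 0.00605 (adjusted p = 0.719 from limma). Same-numbered livers, which come from different mice, had correlations of 0.021 to 0.17 between their deviations from group means (mean 0.11). Livers with different numbers had a mean of -0.027, and 6 of 10 livers correlated best with their own number. The labels do not state whether the replicate numbers mark pairs. Column names also carry a running number, which is adjacent between the genotypes for replicates 1 to 4 and not for replicate 5. The meaning of that number is not stated. The main fit therefore took the livers as unpaired, and whether they are paired was not settled. Depth limits Spry2, Dusp4 and Dusp5 most, with as few as 3, 6 and 10 reads in a liver.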

Other observations

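For 3 of the feedback genes, the genes most like them over the 10 livers were read from all genes compared, as a description with no test. Spry4 was followed most closely by Pofut1, which adds fucose to Notch and other receptors (r = 0.97, Spearman's rho = 0.99, and 0.92 without the 2 livers farthest from the median of Spry4), then by Slc39a9 (r = 0.93), a zinc transporter, and Emilin2 (r = 0.92), an extracellular matrix protein. Their correlation was as high for deviations from group means, at 0.98, 0.95 and 0.92. The levels were 1.43 FPKM for Pofut1, 5.33 for Slc39a9 and 0.492 for Emilin2. Dusp6 was followed by Def8 (r = 0.89), Nat8f5 (r = 0.87) and Fam124a (r = 0.85). Dusp1 was followed less closely, by Zfp939 (r = 0.81), the pseudogene Tubb4b-ps1 (r = 0.80), whose reads a related gene could share, and Hbb-bt (r = 0.80), a globin gene of red blood cells. Without the 2 livers farthest from the median of Dusp1, r was 0.72 for Zfp939, 0.57 for Tubb4b-ps1 and 0.55 for Hbb-bt. These genes were picked as the highest of all genes compared, and the points share libraries and scaling.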
